A study of Mus musculus with 12 samples.

Results

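Hepatokines are proteins that the liver releases into the blood to act on other tissues, and 10 genes for such proteins were followed here in the livers of mice on a normal or a high-fat diet. They are Ahsg and Fetub (fetuin-A and fetuin-B), Lect2 (leukocyte cell-derived chemotaxin 2), Inhbe and Inhbc (the βE and βC subunits of activins), Rbp4 (retinol binding protein 4), Tsku (tsukushi), Angptl4 and Angptl6 (angiopoietin-like proteins) and Enho (the gene of adropin). The members were found by gene name, and the list was drawn up with earlier results of these data known. All 10 were found among the 22170 gene names of the deposited table, in 37 transcript rows, and all 10 passed the filter that left 11566 genes for testing, a mean over the 12 livers of 0.5 FPKM or more. FPKM, an expression level scaled by transcript length and by library size, was summed over the rows of a gene in each liver.

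The livers came from 12 male C57BL/6J mice aged 21 weeks, 3 in each of 4 groups, which had eaten their diet for 16 weeks. The ND group received a normal diet and the HFD group a high-fat diet. The CLE group received the high-fat diet with 1.5% (w/w) of an ethanol extract of Chrysanthemum morifolium leaves, and the LU group the high-fat diet with 0.003% (w/w) luteolin, a flavone that this extract contains. The sample titles abbreviate the CLE group as CLL. No gene was altered in any group, the livers sequenced were described by the study as representative of larger groups, and the mice were fasted before the livers were taken. RNA came from whole liver, so that fewer cells of a type and less RNA per cell cannot be told apart.

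Most hepatokines are made in hepatocytes, leave the cell through the secretory pathway and reach muscle, adipose tissue and vessel walls with the blood. Fetuin-A inhibits the tyrosine kinase of the insulin receptor, Lect2 binds the receptors Met and Tie1, and Angptl4 inhibits lipoprotein lipase, the enzyme that releases fatty acids from circulating triglycerides. In fatty liver and obesity their levels are widely studied as signals from the liver to the rest of the body.

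Of the other properties of the libraries, 3 bear on these genes. Cufflinks can list an abundant gene at 0 when its estimate fails, and albumin was listed at 0 in 11 of the 12 livers, but no member was at 0 in any liver. Genes rich in G and C were relatively low in all 6 ND and HFD libraries and relatively high in all 6 CLE and LU libraries (Spearman's rho between GC content and how far each gene lay from its average over all libraries was -0.37 to -0.14 and 0.16 to 0.48), so the treatments and this property cannot be told apart. It was most pronounced in CLE mouse 4, whose liver also had the highest value of Fetub, Rbp4, Angptl4, Angptl6, Enho, Inhbe and Inhbc. For HFD against ND, the middle log2 fold change over the tested genes was 0.11 as deposited and -0.01 with median-of-ratios scaling, and 82.6% and 55.2%, respectively, of the genes called were higher in HFD livers. For CLE against ND the share higher was 77.5% and 43.0%, and for LU against ND 74.7% and 40.7%. For CLE against HFD it was 45.4% as deposited and 32.0% after correction for GC content.

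By level, expressed per length, the members spanned more than 3 orders of magnitude. Ahsg (3286 FPKM on average over the 12 livers) and Rbp4 (3230 FPKM) were the genes of rank 20 and 21 by mean FPKM among all gene names. Fetub (203 FPKM), Lect2 (131 FPKM), Angptl4 (109.9 FPKM), Inhbe (90.2 FPKM), Inhbc (51.4 FPKM) and Tsku (28.7 FPKM) followed. Angptl6 (8.60 FPKM) and Enho (1.32 FPKM) were the lowest, and Enho was the gene of rank 10189. The highest and the lowest liver differed 14.4-fold in Tsku, 3.41-fold in Enho, 3.17-fold in Lect2, 3.09-fold in Inhbe and 1.33-fold in Ahsg.

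The liver was checked against markers of the cell types it could hold. The summed level of 9 hepatocyte markers, albumin included (its 1 value above 0 was in an LU liver), was 33547 to 38801 FPKM in ND, 40237 to 53179 in HFD, 36702 to 54414 in CLE and 40883 to 63704 in LU livers. The sums of Kupffer cell markers were higher in HFD livers (144 to 215 FPKM) than in ND livers (97.6 to 110.5). Of 7 such markers 3 were called higher, and Marco was lower by mean. Stellate cell sums were likewise higher (128 to 162 against 72.6 to 102.6), with 4 of 6 called. So were those of sinusoidal endothelium (80.1 to 84.7 against 63.4 to 74.8, 1 of 5 called), although its marker Kdr was lower (mean 7.51 against 9.13 FPKM). Red blood cell sums were 194.5 to 249.1 against 122 to 164.8, with 0 of 3 called. Of all tested genes, 9.99% were called higher. In CLE and LU livers Kupffer cell sums were 143 to 182 and 109 to 187, and stellate cell sums 127 to 201 and 128 to 170. Of 6 adipocyte markers, Lep, Adipoq and Plin1 were highest in the LU livers at levels under 0.8 FPKM (Lep, which encodes leptin, was at 0 in the other 9 livers and at 0.139 to 0.187 FPKM in the LU livers). Cidec (71.9 to 169 FPKM in LU and 86.4 to 185 in CLE livers), Lipe (9.09 to 10.1 and 8.15 to 9.54) and Retn (0.0736 to 0.219 and 0 to 0.254) did not set the LU livers apart in this way. The sum of all 6, most of which was Cidec, was 42.7 to 79.6 FPKM in ND, 79.1 to 89.9 in HFD, 94.9 to 194 in CLE and 82.03 to 179 in LU livers. The part of these cells in the members' changes was not tested.

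**Figure D1:**
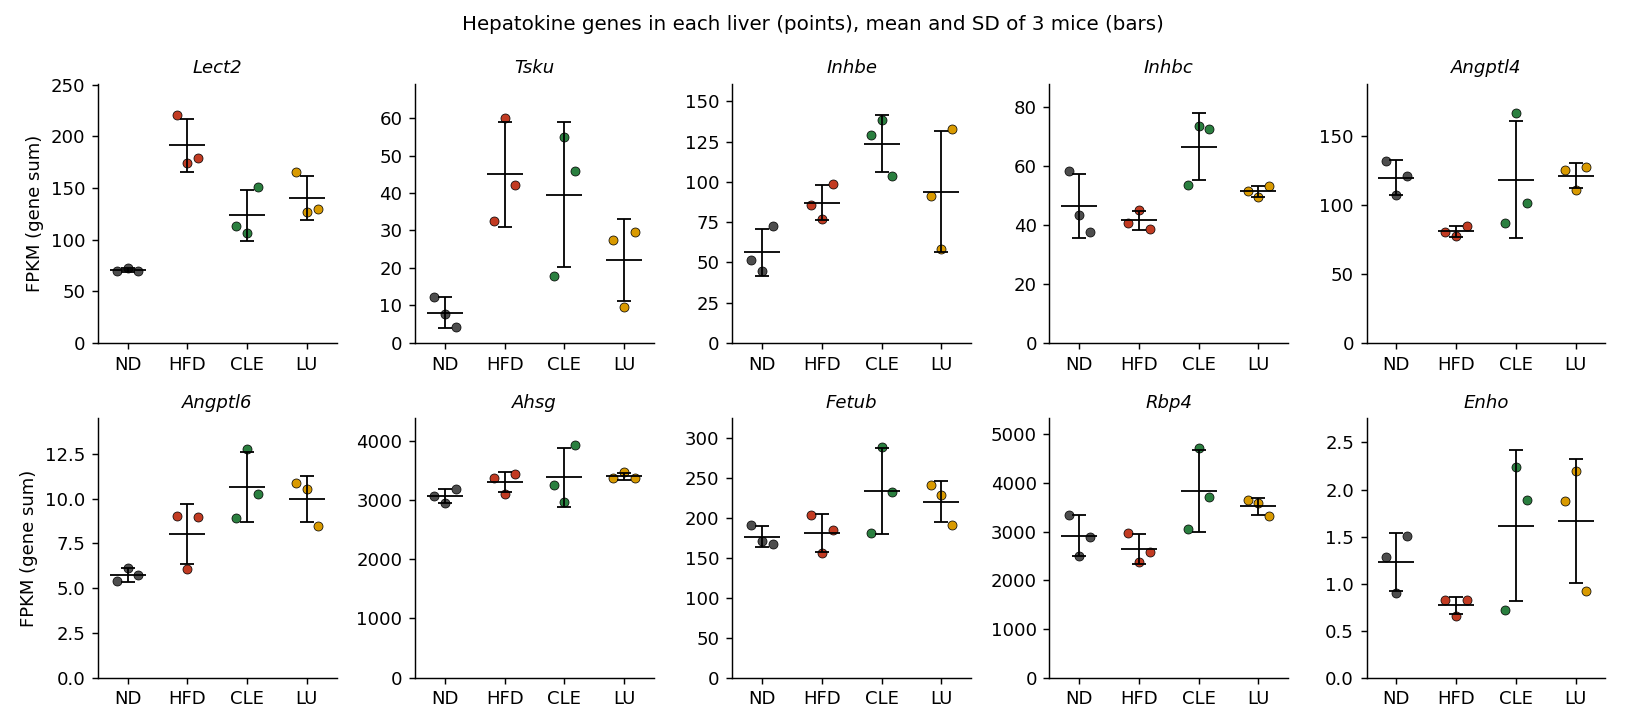
Summed FPKM (y axis, linear from 0) of each hepatokine gene in each of the 12 livers (points) by diet group (x axis), with the mean and SD of 3 mice (bars). Lect2 and Tsku were higher in all HFD livers than in all ND livers, Angptl4 was lower in all HFD livers than in the ND and LU livers, and CLE mouse 4 gave the top value in 7 of the 10 genes.

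The first comparison asked how the high-fat diet alone changed the hepatokine genes. Lect2 and Tsku rose, by 2.66 and 5.29 times, and none of the other members passed the test in either direction. Called were 2 of the 10 members, both higher, where 12.1% of all tested genes were called in either direction and 9.99% were called higher (limma's moderated test on log2(FPKM + 1), Benjamini-Hochberg adjusted p over all tested genes under 0.05). The median log2 fold change of the members was 0.07 and that of all tested genes 0.11. The HFD and ND livers did not overlap in 5 members (Lect2, Tsku, Inhbe, Angptl4 and Enho), against 36.5% of all tested genes.

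Lect2, a chemotactic protein that has been linked to insulin resistance of skeletal muscle, was the member that differed most clearly among the groups. It is a single-transcript gene in the deposited table, with no other annotated gene at its locus (chr13:56542464-56548502, minus strand, GRCm38, GENCODE M21). Its promoter is shown because Lect2 was the member called in the most comparisons. In this RefSeq window of 250 bases before to 50 bases after the start (GRCm38.p6, chr13:56548489-56548788, minus strand), the capitals mark ATCAAAG, the core of TCF/LEF sites, 32 bases before the start. Searched on both strands, these letters were found in 3.73% of the 32851 promoters of the same length.
Lect2: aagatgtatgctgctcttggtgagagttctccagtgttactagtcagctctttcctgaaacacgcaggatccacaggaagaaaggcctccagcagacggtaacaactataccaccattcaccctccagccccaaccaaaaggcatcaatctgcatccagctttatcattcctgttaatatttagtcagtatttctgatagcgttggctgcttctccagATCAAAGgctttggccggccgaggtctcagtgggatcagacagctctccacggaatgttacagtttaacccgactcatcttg

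In the ND livers Lect2 was at 70.1, 72.9 and 69.5 FPKM (mean 70.8 ± 1.84 SD, n = 3). In the HFD livers it was at 220, 174 and 179 FPKM (191 ± 25.5). All HFD values were thus more than the highest ND value, and the ND livers were closely alike. The log2 fold change was 1.41 (SE 0.15, 95% interval 1.09 to 1.74, adjusted p = 1.1e-04), and it passed in all 10 alternative analyses and with each of the 12 mice left out, at 1.25 with median-of-ratios scaling.

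Tsku encodes a small secreted leucine-rich proteoglycan that was studied first as a signal modulator in development. Its promoter is shown beside that of Lect2 as the other gene that rose with the high-fat diet (GRCm38.p6, chr7:98361239-98361538, minus strand). Searched here on both strands were a TATA box with the letters TATAAA, the CCAAT box, the E-box with the letters CACGTG, the TCF/LEF core above, and the response element and half-site described below for Inhbe and Inhbc. None of these 6 motifs was found, so the window holds no capitals. The TATA box was found in 13.6% and the E-box in 7.15% of all promoters. Its share of G and C was 69.0%, and that of the Lect2 window 48.0%.
Tsku: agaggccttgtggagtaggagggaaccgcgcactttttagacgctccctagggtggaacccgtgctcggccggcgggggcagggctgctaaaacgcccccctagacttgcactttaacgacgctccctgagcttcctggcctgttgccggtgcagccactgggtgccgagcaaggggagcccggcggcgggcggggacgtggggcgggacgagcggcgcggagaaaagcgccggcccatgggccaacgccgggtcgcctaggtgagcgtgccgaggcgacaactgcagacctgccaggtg

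The ND livers held 12.3, 7.71 and 4.18 FPKM of Tsku (8.07 ± 4.07). The HFD livers held 32.6, 60.1 and 42.3 FPKM (45.0 ± 14.0). The lowest HFD liver was above the highest ND liver, although both groups were wide. This was a log2 fold change of 2.40 (SE 0.47, interval 1.38 to 3.43, adjusted p = 0.0066). The sum rests on 16 rows (chr7:98350668-98361328), and the most abundant transcript carried 45.1% of it. In that transcript alone the values were 4.72, 2.70 and 2.15 FPKM in ND and 17.0, 23.7 and 18.3 FPKM in HFD livers.

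Angptl4 moved the other way by level without passing the test. It was at 132, 107 and 121 FPKM in ND livers (120 ± 12.4). In HFD livers it was at 80.2, 77.2 and 84.7 FPKM (80.7 ± 3.79). Every HFD liver was below every ND liver, and the log2 fold change was -0.56 (SE 0.19, interval -0.96 to -0.16, adjusted p = 0.070). It passed with median-of-ratios scaling (-0.72, adjusted p = 0.036), quantile normalization (-0.65, 0.042), GC content correction (-0.70, 0.019) and in a fit of both groups alone (-0.56, 0.0088). It also passed without CLE mouse 2 (0.036) or CLE mouse 4 (0.0055), which leave the fold change as it is and change the shared spread. Of the 8 rows of Angptl4 (chr17:33773750-33781830), 1 was assembled on the opposite strand, and rows that match a reference transcript held 93.1% of the sum.

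Angptl4 is a classical target of the fatty acid receptor PPARα. Of 14 other targets of PPARα that were tested, 3 were lower in HFD than in ND livers and none was higher. Of all tested genes, 12.1% were called in either direction and 9.99% higher. The median log2 fold change was -0.37 over the 14 targets and 0.11 over all tested genes. The 3 lower genes were the fatty acid hydroxylases Cyp4a14 (-1.47, adjusted p = 0.025) and Cyp4a10 (-0.71, 0.043) and Cpt1a (-0.48, 0.033), the carnitine palmitoyltransferase of mitochondrial fatty acid import. None of the 14 was called for CLE or LU against HFD livers. The part of PPARα in the level of Angptl4 was not tested.

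Angptl8, which the table names Gm6484, is another regulator of lipoprotein lipase. It rose with the high-fat diet while Angptl4 had its lowest group mean. Gm6484 was at 4.92, 2.85 and 7.40 FPKM in ND and at 29.7, 28.3 and 19.2 FPKM in HFD livers, a log2 fold change of 2.19 (adjusted p = 0.015). The groups did not overlap. Lpl itself, which the adult liver expresses at a low level, rose from 3.604 ± 1.057 to 17.2 ± 1.85 FPKM (2.0, 6.0e-05), and Gpihbp1, the anchor of the lipase on endothelium, was at 14.3 ± 2.68 and 18.5 ± 1.43 FPKM.

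**Figure D2:**
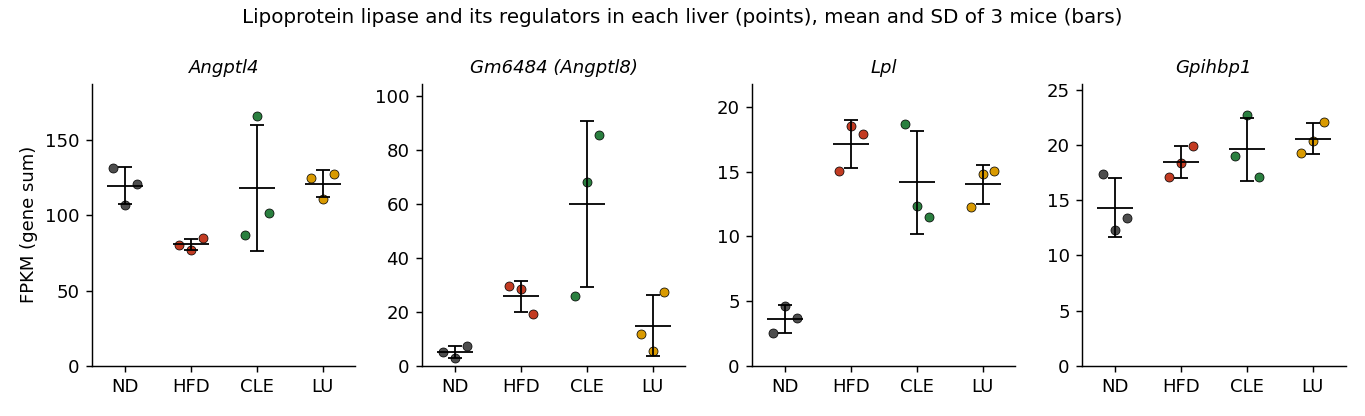
FPKM (y axis, linear from 0) of Angptl4 and of the genes of its enzyme system in each liver (points) by diet group (x axis), with the mean and SD of 3 mice (bars). In HFD livers Angptl4 was at 77.2 to 84.7 FPKM, below all ND livers, while Gm6484 (Angptl8) and Lpl were above all ND livers.

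The activin subunit genes Inhbe and Inhbc are neighbours on chromosome 10 (chr10:127348857-127354411 and chr10:127356322-127370431, both on the minus strand), 1.9 kb apart by these GENCODE M21 bounds, and both are expressed mainly in the liver. Their promoters are shown because the genes gave different results although they are adjacent. The RefSeq start of the Inhbe window, at 127351848, lies inside the M21 bounds of Inhbe, so the 2 annotations place its start differently. In the Inhbe window (GRCm38.p6, chr10:127351799-127352098) the first capitals mark TTGCATCA, the reverse complement of the C/EBP-ATF response element TGATGNAA, 181 bases before the start, and the second a CCAAT box at 55 bases before it. In the Inhbc window (chr10:127370499-127370798) the capitals mark AGGTCA, a nuclear receptor half-site, 40 bases after the start. TGATGNAA was found in 3.97%, CCAAT in 37.4% and AGGTCA in 16.3% of all promoters.
Inhbe: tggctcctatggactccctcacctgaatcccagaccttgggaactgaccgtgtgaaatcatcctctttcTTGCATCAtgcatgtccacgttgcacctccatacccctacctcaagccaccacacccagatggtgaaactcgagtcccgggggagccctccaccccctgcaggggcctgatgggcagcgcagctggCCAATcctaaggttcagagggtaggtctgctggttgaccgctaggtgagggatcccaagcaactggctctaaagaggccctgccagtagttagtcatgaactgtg
Inhbc: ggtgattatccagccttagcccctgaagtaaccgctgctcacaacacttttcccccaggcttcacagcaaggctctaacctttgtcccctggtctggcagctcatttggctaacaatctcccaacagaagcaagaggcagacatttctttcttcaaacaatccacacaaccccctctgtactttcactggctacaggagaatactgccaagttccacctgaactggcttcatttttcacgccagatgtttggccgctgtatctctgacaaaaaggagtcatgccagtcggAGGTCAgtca

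Inhbe was at 51.3, 44.7 and 72.8 FPKM in ND livers (56.3 ± 14.7). It was at 85.5, 77.2 and 98.7 FPKM in HFD livers (87.1 ± 10.9). The groups did not overlap, but the log2 fold change of 0.64 (SE 0.25, interval 0.10 to 1.19) did not pass (adjusted p = 0.12). It passed in a fit of both groups alone (0.038). Inhbc was at 58.4, 43.3 and 37.6 FPKM in ND (46.4 ± 10.7) and at 40.7, 45.0 and 38.7 FPKM in HFD livers (41.5 ± 3.25). These overlapped, with a log2 fold change of -0.14 (SE 0.16, adjusted p = 0.63).

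Inhbe is a known target of the integrated stress response, in which ATF4 and its partners induce genes of amino acid metabolism. Of 11 other targets of that response that were tested, 6 were higher and 1 was lower in HFD than in ND livers, against 9.99% of all genes called higher. Those with the largest changes were the stress cytokine Gdf15 (2.67, adjusted p = 0.0080), Vldlr (1.55, 0.0010), a lipoprotein receptor, and the transcription factors Ddit3 (1.26, 0.0058) and Atf3 (0.99, 0.020). The gene that fell was Atf5 (-0.88, 0.0071). In CLE against HFD livers Atf5 alone of the 11 was called, higher (0.78, 0.034), where 6.03% of all tested genes were called. The median log2 fold change of the 11 was 0.73 for HFD against ND and -0.22 for CLE against HFD livers. None of the 11 was called for LU against HFD livers, where 1.03% of all tested genes were. The part of this response in the level of Inhbe was not tested. Of the receptors and antagonists through which activins act, Acvr1b, Acvr2a, Acvr2b, Tgfbr3 and Fst were tested and none was called between HFD and ND livers, while Acvr1c, Fstl3 and Inha were at or below 0.256 FPKM in every liver.

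The remaining members showed smaller differences between HFD and ND livers, and none passed. Angptl6, a secreted factor linked to energy expenditure, was at 5.37, 6.11 and 5.71 FPKM in ND and at 9.05, 6.08 and 8.95 FPKM in HFD livers (log2 fold change 0.41, adjusted p = 0.12). HFD mouse 15 alone lay within the ND range, and without it the value was 0.57 (0.043). Enho, whose product adropin has been linked to glucose and lipid balance, was at 1.29, 0.897 and 1.50 FPKM in ND and at 0.821, 0.659 and 0.823 FPKM in HFD livers. Every HFD liver was lower than every ND liver, but the log2 fold change of -0.33 (SE 0.23, adjusted p = 0.40) did not pass.

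The fetuin genes and Rbp4, the most abundant of the set, differed little. Ahsg was at 3063 ± 117 FPKM in ND and at 3304 ± 174 FPKM in HFD livers, and its 95% interval of -0.19 to 0.41 on the log2 scale leaves no room for a change of the size seen in Lect2. Fetub was at 176 ± 12.9 and 181 ± 24.0 FPKM (interval -0.32 to 0.38), and Rbp4 at 2915 ± 422 and 2643 ± 312 FPKM (interval -0.52 to 0.25). The sign of the differences of Ahsg and Fetub turned with the scaling. Ahsg and Fetub are neighbours on chromosome 16 (chr16:22891277-22899449 and chr16:22918334-22939778), 18.9 kb apart in a cluster of cystatin family genes, of which Hrg, Kng1 and Kng2 were tested and none was called between HFD and ND livers.

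**Figure D3:**
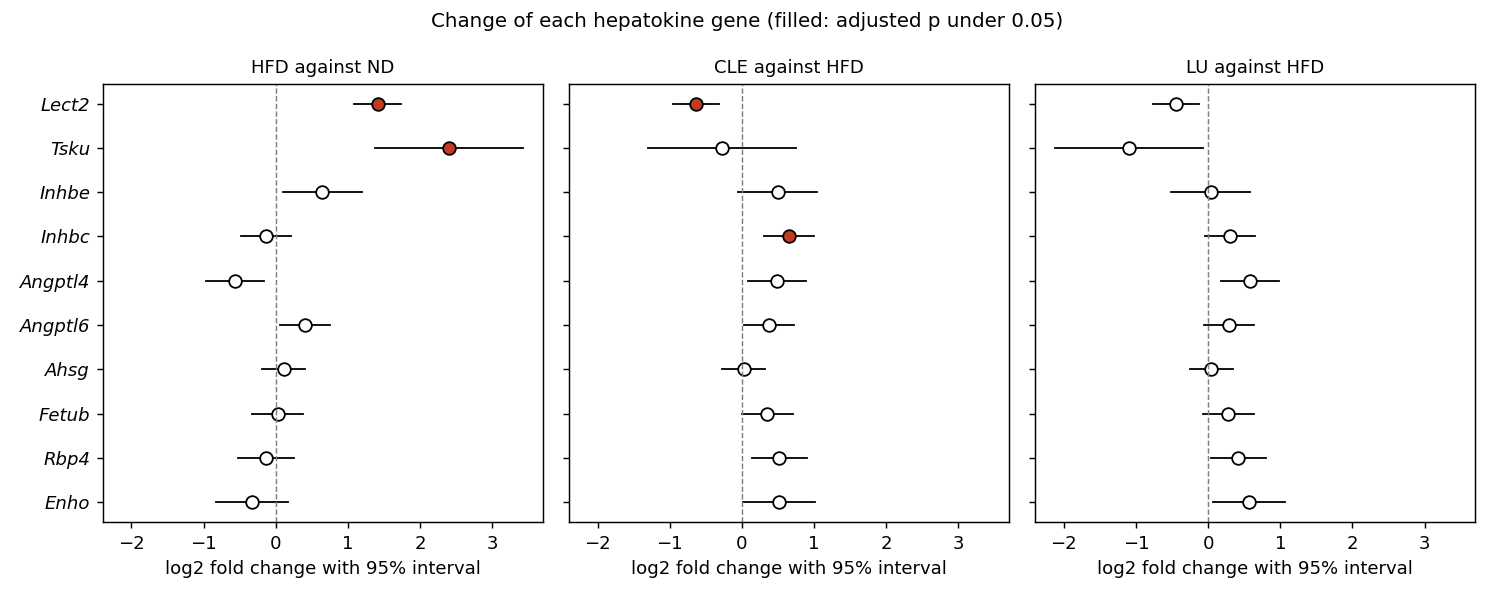
Log2 fold change (x axis, points) of each hepatokine gene with its 95% interval (lines) in HFD livers against ND and in CLE and LU livers against HFD, 3 mice per group, with filled points for an adjusted p under 0.05. Lect2 was at 1.41 and then at -0.64 and -0.44, and Inhbc at -0.14 and then at 0.65 and 0.30.

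The second comparison asked what the leaf extract changed on the high-fat diet. Lect2 fell and Inhbc rose in CLE livers, and 2 of the 10 members were called against 6.03% of all tested genes. CLE and HFD livers did not overlap in 5 members, with Lect2 lower and Inhbe, Inhbc, Rbp4 and Angptl4 higher, where 31.3% of all tested genes did not overlap. The median log2 fold change, as deposited, was 0.43 over the members and 0.02 over all tested genes. Every member but Lect2 was richer in G and C than the middle tested gene. After GC content correction every member but Lect2 had a lower value (Enho 0.17 and Angptl6 0.05). The calls of Lect2 and Inhbc were near the threshold, and neither passed after GC content correction (adjusted p = 0.071 for Lect2 and 0.068 for Inhbc) or in a fit of both groups alone (0.098 and 0.086).

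In the CLE livers Lect2 was at 113, 106 and 151 FPKM (123 ± 24.3). All of these lay between the ND and the HFD values. Against HFD livers, this was a log2 fold change of -0.64 (SE 0.15, interval -0.96 to -0.31, adjusted p = 0.036). The direction held with each mouse left out, but the call was lost without CLE mouse 4 (-0.54, 0.14), HFD mouse 12 (-0.53, 0.092), HFD mouse 15 (-0.70, 0.11) or HFD mouse 18 (-0.68, 0.065).

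Inhbc was at 53.4, 73.6 and 72.3 FPKM in CLE livers (66.4 ± 11.3). The lowest of these was above the highest HFD liver, at 45.0 FPKM. As a log2 fold change this was 0.65 (SE 0.16, interval 0.31 to 1.00, adjusted p = 0.038). The call was lost without CLE mouse 4 (0.57, 0.15), CLE mouse 11 (0.59, 0.076), HFD mouse 12 (0.64, 0.084), HFD mouse 15 (0.71, 0.13), HFD mouse 18 (0.61, 0.086) or LU mouse 2 (0.65, 0.053). On the other strand, exons of Gm47200 overlap those of Inhbc, and the libraries were not stated to keep the strand.

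Inhbe was at 129, 138 and 104 FPKM in CLE livers (124 ± 17.8), all above the HFD livers, with a log2 fold change of 0.50 (SE 0.25, interval -0.05 to 1.04, adjusted p = 0.20). The transcript that matches the reference held 66.6% of its sum, and the rest came from 1 assembled row that was at 21.4 to 26.7 FPKM in HFD and at 38.3 to 65.7 FPKM in CLE livers. In the reference transcript the CLE livers were at 87.4, 72.4 and 65.5 FPKM and the HFD livers at 61.5, 55.8 and 71.9 FPKM. The groups overlapped in that transcript, so the separation of Inhbe came in part from the assembled row.

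Rbp4, which carries retinol in plasma together with transthyretin, was at 2983, 2372 and 2575 FPKM in HFD and at 3065, 4726 and 3712 FPKM in CLE livers. The groups did not overlap, but the lowest CLE liver was near the highest HFD liver, and the log2 fold change of 0.52 (SE 0.18, interval 0.13 to 0.91) did not pass (adjusted p = 0.083). It passed with quantile normalization (0.48, 0.024) and without CLE mouse 2 (0.67, 0.027). Over all mice left out it ranged from 0.36 to 0.67, and it was lowest without CLE mouse 4. Ttr, the partner of Rbp4, was at 4043 ± 725 FPKM in HFD and 3504 ± 978 FPKM in CLE livers. The retinol receptor gene Stra6 was listed at 0 in every liver.

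Angptl4 in CLE livers was at 87.2, 166 and 101 FPKM, and the value of CLE mouse 4 was above all other livers of the study. The log2 fold change against HFD was 0.49 (SE 0.19, interval 0.09 to 0.89, adjusted p = 0.11) and, without CLE mouse 2, 0.68 (0.024). Gm6484 was at 25.9, 68.3 and 85.7 FPKM in the same livers. Leaving out the same mouse, CLE mouse 2, also took Fetub (0.52, 0.035) and Enho (0.79, 0.022) past the threshold, so that 6 members were then called in place of 2. The calls over all tested genes rose as well, from 6.03% to 18.9%. Over all mice left out, Angptl4 ranged from 0.22 to 0.68, Fetub from 0.19 to 0.52 and Enho from 0.34 to 0.79. The lowest value of each was without CLE mouse 4.

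Tsku was spread widely in CLE livers, at 17.99, 55.0 and 45.8 FPKM (39.6 ± 19.3), and overlapped the HFD livers (log2 fold change -0.28, SE 0.47, adjusted p = 0.72). Its interval of -1.30 to 0.75 includes changes of more than 2-fold downwards. Angptl6 was at 8.90, 12.8 and 10.3 FPKM (0.37, interval 0.02 to 0.72, adjusted p = 0.15) and Enho at 0.716, 2.24 and 1.89 FPKM (0.52, interval 0.02 to 1.02, adjusted p = 0.16). These are the most GC-rich members, with 63.2% and 65.6% of G and C in their transcripts, above 99.03% and 99.7% of tested genes, and after GC content correction their values were 0.05 and 0.17. Fetub was at 234 ± 53.5 FPKM (0.35, adjusted p = 0.17) and Ahsg at 3379 ± 495 FPKM (0.02, interval -0.28 to 0.32, adjusted p = 0.92).

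**Figure D4:**
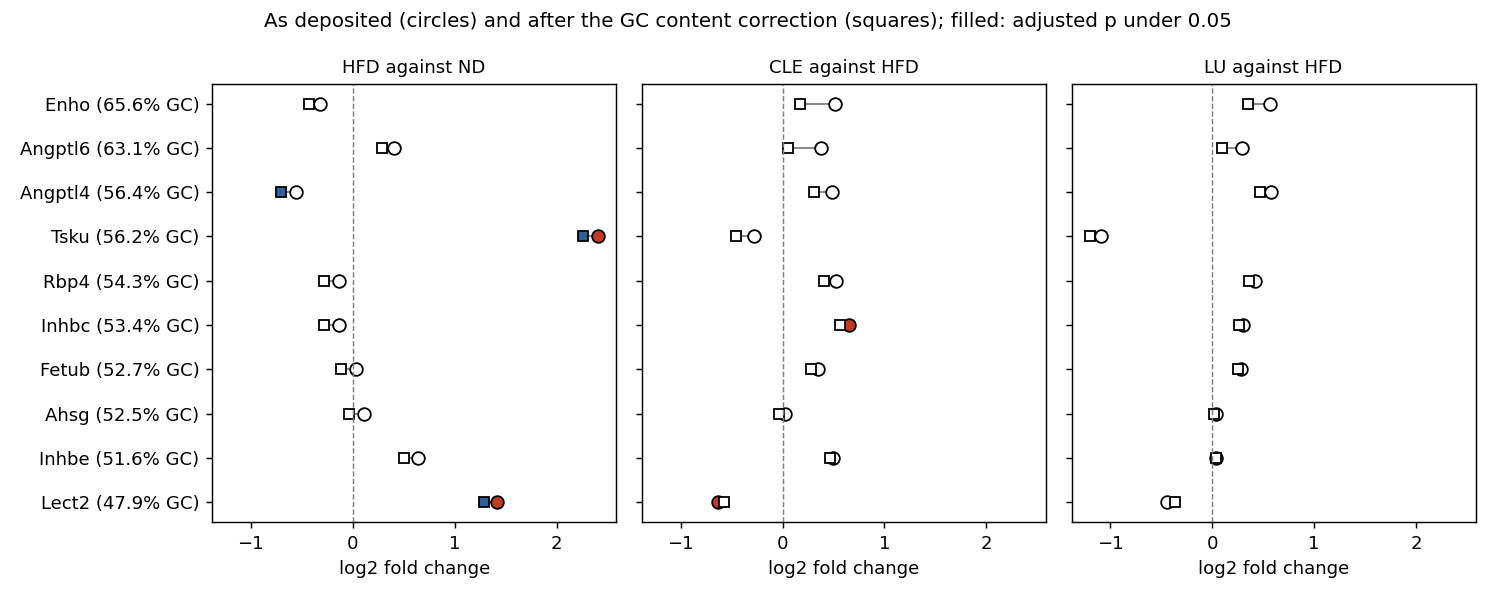
Log2 fold change (x axis) of each hepatokine gene, in order of its transcript's GC content, with FPKM as deposited (circles) and after correction of each library for GC content (squares), 3 mice per group; filled symbols stand for an adjusted p under 0.05. For CLE against HFD, Enho moved from 0.52 to 0.17 and Angptl6 from 0.37 to 0.05, while Lect2 moved from -0.64 to -0.57.

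The third comparison asked the same of luteolin. None of the 10 members was called between LU and HFD livers (limma), where 1.03% of all tested genes were called. At an unadjusted p under 0.05 there were 5, namely Angptl4, Lect2, Enho, Rbp4 and Tsku, against 20.3% of all tested genes. LU and HFD livers did not overlap in 6 members, with Lect2 and Tsku lower and Inhbc, Rbp4, Angptl4 and Enho higher, against 30% of all tested genes. The median log2 fold change, as deposited, was 0.29 over the members and -0.02 over all tested genes. After GC content correction every member but Lect2 had a lower value here too (Enho 0.35 and Angptl6 0.09).

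Angptl4 was at 125, 111 and 128 FPKM in LU livers (121 ± 8.92), all above the HFD livers and in the range of the ND livers. As a log2 fold change this was 0.58 (SE 0.19, interval 0.18 to 0.98, adjusted p = 0.13). It passed in a fit of both groups alone (0.031) and without CLE mouse 4 (0.018), which were 1 of 10 alternatives and 1 of 12 mice left out. After GC content correction it was 0.47 (0.18). Adipocytes make Angptl4 too. Of the 6 adipocyte markers, Lep, Adipoq and Plin1 were highest in these livers. The sum of the 6 overlapped between LU (82.03 to 179 FPKM) and HFD (79.1 to 89.9 FPKM) livers and between LU and CLE livers. Most of this sum was Cidec (71.9 to 169 FPKM in LU and 72.9 to 83.4 in HFD livers), so it does not reflect Lep, Adipoq and Plin1. The part of adipocytes in the level of Angptl4 was not tested.

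Lect2 was at 165, 127 and 130 FPKM in LU livers (140 ± 21.2), again between the ND and HFD ranges. The log2 fold change against HFD was -0.44 (SE 0.15, interval -0.77 to -0.12, adjusted p = 0.14). Tsku was at 27.4, 9.49 and 29.6 FPKM (22.1 ± 11.01), all below the lowest HFD liver, with a log2 fold change of -1.09 (SE 0.47, interval -2.12 to -0.07, adjusted p = 0.22). LU mouse 3 alone was within the ND range of Tsku.

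Rbp4 was at 3652, 3597 and 3328 FPKM in LU livers (log2 fold change 0.42, adjusted p = 0.22), Inhbc at 51.4, 49.5 and 53.2 FPKM (0.30, 0.29) and Enho at 1.88, 2.197 and 0.925 FPKM (0.56, 0.20). Each of these lay above all HFD livers, and Enho only by a small margin in LU mouse 8. Inhbe was at 90.9, 58.2 and 133 FPKM (0.04, 0.95), the widest spread of any group in that gene. Angptl6 was at 9.97 ± 1.30 FPKM (0.29, 0.32), Fetub at 220 ± 25.5 FPKM (0.28, 0.34) and Ahsg at 3399 ± 56.4 FPKM (0.04, 0.89).

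CLE and LU livers could be set beside each other only at different doses. None of the 10 members was called between them (limma), and 0.00865% of all tested genes were, namely 1 gene. At an unadjusted p under 0.05 there was 1 member, Inhbc, against 4.39% of all tested genes. Every CLE liver was above every LU liver in Inhbc, by 0.35 on the log2 scale (interval 0.01 to 0.69, adjusted p = 0.97), though the lowest CLE liver (53.4 FPKM) and the highest LU liver (53.2 FPKM) were nearly equal. The difference was -0.19 in Lect2 (interval -0.52 to 0.13), 0.46 in Inhbe (interval -0.09 to 1.01) and 0.82 in Tsku (interval -0.21 to 1.84). These intervals do not show that the extract and luteolin act alike on these genes.

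The comparisons with the ND group ask how far the livers on the supplemented high-fat diets were from the normal diet. Called were 5 members in CLE livers, all higher, where 27% of all tested genes were called and 20.9% were called higher. In LU livers 2 members were called, both higher, where 14.9% were called and 11.2% called higher. Both comparisons share the ND livers. Among the 4 groups, the moderated F test called Lect2 (adjusted p = 7.0e-04), Tsku (0.014), Angptl6 (0.017), Inhbe (0.032) and Inhbc (0.037), which is 5 of 10 members against 24.4% of all tested genes.

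Lect2 stayed above the ND level in both groups, by 0.77 in CLE (SE 0.15, adjusted p = 0.0053) and by 0.97 in LU livers (0.0031), and every value was above the highest ND liver. By mean, its order was ND, CLE, LU and HFD, and the neighbours CLE and LU overlapped. Over 7 mice with the mouse number as a block, described below, Lect2 did not pass in CLE (0.59, adjusted p = 0.095) or LU livers (1.01, 0.065). In the same 7 mice without the block it passed (0.035 and 0.018). Tsku was higher than in ND by 2.12 in CLE livers (SE 0.47, adjusted p = 0.0093) and had a log2 fold change of 1.31 in LU livers (0.076), where it passed without LU mouse 3 (1.80, 0.037) or without CLE mouse 2 (1.31, 0.046). In CLE livers Tsku did not pass with the block (1.77, 0.13) or in the same 7 mice without it (1.95, 0.059). Inhbe was higher than in ND by 1.14 in CLE livers (SE 0.25, interval 0.60 to 1.69, adjusted p = 0.0092), with all CLE livers above all ND livers and the call kept in all 12 alternative analyses and with each mouse left out. In LU livers its value was 0.68 (0.082), and 0.98 (0.025) without LU mouse 3.

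Angptl6 was higher than in ND livers in both groups, by 0.78 in CLE (SE 0.16, adjusted p = 0.0069) and by 0.70 in LU livers (0.017). No CLE or LU liver was at or below the highest ND liver. After GC content correction the values were 0.34 (0.10) and 0.38 (0.087), and neither passed. In LU livers the call was also lost without LU mouse 2 (0.64, 0.052), LU mouse 3 (0.66, 0.054), ND mouse 2 (0.66, 0.056) or ND mouse 4 (0.70, 0.052). Exons of A230050P20Rik lie on the other strand across those of Angptl6 (chr9:20873808-20879727), and that gene was at 43.8 ± 4.70 FPKM in ND, 48.0 ± 2.98 in HFD, 82.7 ± 25.2 in CLE and 56.3 ± 16.1 in LU livers, up to 112 FPKM in CLE mouse 4. It too was higher in CLE than in ND livers (log2 fold change 0.87, adjusted p = 0.012), and without strand the reads of both genes in the shared exons cannot be told apart. Enho (chr4:41638144-41640324) shares exon sequence with Dnaic1 on the other strand, but Dnaic1 was at or below 0.198 FPKM in every liver.

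Inhbc was higher than in ND by 0.52 in CLE livers (SE 0.16, adjusted p = 0.031), although the lowest CLE liver (53.4 FPKM) was below the highest ND liver (58.4 FPKM). The call was lost with median-of-ratios scaling (0.35, 0.15), quantile normalization (0.41, 0.079), GC content correction (0.29, 0.23), a fit of both groups alone (0.087) and no filter on low values (0.052). It was also lost without CLE mouse 4 (0.44, 0.10), CLE mouse 11 (0.45, 0.090), ND mouse 3 (0.48, 0.081) or ND mouse 4 (0.38, 0.12). Unlike the calls of Lect2, Tsku and Inhbe in CLE against ND livers, it was thus within what the scaling of the libraries can move.

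The genes whose pattern over the 12 livers was most like that of the members with the smallest F test p were, for Lect2, Pgrmc1 (a haem-binding membrane protein, Pearson's r = 0.99), the glucuronosyltransferase gene Ugt2b36 (0.98) and Abcg5 (0.97). Abcg5 encodes part of the sterol transporter of the canalicular membrane, and it was at 28.9 ± 2.07 FPKM in ND, 119 ± 12.1 in HFD, 73.7 ± 5.78 in CLE and 97.2 ± 15.1 in LU livers, in the same order of groups as Lect2. For Tsku they were Ihh (0.94), the hedgehog ligand, Acnat2 (0.93), an acyl-CoA:amino acid N-acyltransferase, and Gss (0.92), glutathione synthetase. For Angptl6 they were KLC1 (0.96), a kinesin light chain, Miip (0.96) and Pnpla6 (0.95), a phospholipase. These values describe 12 livers in 4 groups with shared library properties, and no test was made.

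Abcg5 is regulated by the oxysterol receptor LXR. Of 9 LXR targets that were tested, 4 were higher in HFD than in ND livers, against 9.99% of all tested genes. They were Abcg5 (2.01, adjusted p = 3.1e-06), Srebf1 (1.72, 0.0089), Abcg8 (1.35, 5.6e-04) and Abcg1 (0.82, 0.0040). In CLE against HFD livers Abcg5 (-0.69, 0.019) and Abcg8 (-0.92, 0.022) were lower, where 6.03% of all tested genes were called in either direction. In LU against HFD livers none of the 9 was called. Abcg5 was named for its likeness to Lect2 in these same livers, so its own changes follow from that choice. A link of LXR to Lect2 was not tested.

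Of the proteins that the members bind or act through, 19 of 28 listed genes were tested. In HFD against ND livers 5 were higher and none was lower, where 9.99% of all tested genes were called higher. Among the 5, besides Lpl and Gm6484, was Gpr19 (0.48, adjusted p = 0.041), a receptor that has been linked to adropin. Of the receptors of Lect2, Met was at 16.9 ± 1.84 FPKM in ND and 17.0 ± 1.97 in HFD livers and fell to 10.98 ± 2.47 FPKM in CLE livers (-0.60 against HFD, adjusted p = 0.041), while Tie1 was at 4.51 ± 0.713 FPKM in HFD and 5.98 ± 0.903 in CLE livers (0.34, 0.17). Insr, the insulin receptor that fetuin-A inhibits, was at 33.0 ± 5.11 FPKM in ND and 28.5 ± 1.37 in HFD livers (-0.19, 0.37). In the cystatin cluster, Hrg, the histidine-rich glycoprotein next to Fetub, was lower in CLE than in HFD livers (444 ± 70.5 against 734 ± 56.7 FPKM, -0.73, 0.022), while Fetub itself was not called.

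Of 19 other liver-secreted regulators that were tested, 5 were higher and 3 lower in HFD than in ND livers. Of all tested genes, 12.1% were called in either direction and 9.99% higher. The largest changes were in Lcn2 (3.22, adjusted p = 0.0063), an iron-siderophore binding protein of the acute phase, Gdf15 (2.67, 0.0080), Igfbp1 (-2.23, 0.0049) and Gm6484 (2.19, 0.015). Igfbp2, which binds insulin-like growth factors, was at 386 ± 94.7 FPKM in ND, 150 ± 27.7 in HFD, 547 ± 177 in CLE and 445 ± 56.3 in LU livers. It was lower in HFD than in ND livers (-1.35, 0.0031) and higher than in HFD in both CLE (1.83, 0.0029) and LU livers (1.57, 0.0095). Fgf21, the best known stress hepatokine, was at 19.9 ± 7.52, 9.82 ± 3.77, 17.2 ± 3.32 and 12.4 ± 8.90 FPKM in the ND, HFD, CLE and LU livers, and was not called.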

How the data were processed

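Livers of 12 mice, 3 per group, were grouped by the sample labels. Per the labels and the study's methods, the authors sequenced paired reads of 100 bases, processed them with CASAVA 1.8.2, Bowtie2 2.2.3, TopHat2 2.0.12 and Cufflinks 2.2.1 (submitters' processing notes), and deposited FPKM values of 152210 transcripts (78786 known and 73424 assembled). The table names 30 samples of the assembly and holds 12. The methods name normalization factors and do not state whether the FPKM include them. The genome build and the strand setting are not given in the sources used here. GENCODE M21 (GRCm38), used for loci and GC content, gives 85.5% of the known transcripts the same start and end. FPKM carry no counts, so depth is unknown and no counting interval can be given.

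FPKM were summed per gene name, leaving out 6316 rows without one. The test was that of limma 3.58.1 (R 4.3.3) on log2(FPKM + 1), a scale that understates changes of low genes, with the variance trend, 1 coefficient per group and all 12 livers in 1 fit (12.8 degrees of freedom), and Benjamini-Hochberg adjustment over the 11566 genes whose mean was 0.5 FPKM or more. Mice of a group are separate animals. On simulated data for HFD against ND with 11566 genes, 188 of 200 genes changed by 1.5 (log2) were recovered and 13 others called. Most member differences were smaller than 1.5, and the recovery of such changes was not simulated. The members and gene lists were chosen with earlier results of these data known. Named were all members, of each list up to 4 called genes with the largest change, partners and neighbours that a member is set beside, and the 3 genes most correlated with each of the 3 members of smallest F test p. Igfbp2, Fgf21, Atf5, and marker genes were named after their values were seen. Alternatives were median-of-ratios scaling, GC content correction, quantile normalization, a pseudocount of 0.1, a minimum mean of 5 FPKM, all genes without a filter, the transcript with the highest mean, rows matching a reference transcript, no variance trend, a fit of the groups compared alone, each mouse left out, and a replicate block. Results of a few listed genes are not reported here. Promoters are from RefSeq (GRCm38.p6), where 8 of the 10 members were matched. Fits of the 7 mice of the block without it were added after seeing the data.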

Additional observations from a re-analysis of the deposited data

How the results depend on the processing

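The counts of members called were 2 (HFD against ND), 2 (CLE against HFD), 0 (LU against HFD), 0 (CLE against LU), 5 (CLE against ND), 2 (LU against ND) and 5 (among the 4 groups). In the same order, 12.1%, 6.03%, 1.03%, 0.00865%, 27%, 14.9% and 24.4% of all tested genes were called. A percentage after a count below is that share in the same setting. With GC content correction, 0 were called for CLE against HFD (2.87%), 3 for CLE against ND (17.4%), 1 for LU against ND (10.7%) and 3 among the 4 groups (15.9%). Fits of the groups compared alone called 4 for HFD against ND (15.9%), 0 for CLE against HFD (0.787%) and 1 for LU against HFD (2.27%). With no filter on low values, which adds genes to the adjustment, 0 were called for CLE against HFD (0.748%) and 3 among the 4 groups (10.9%), and with the transcript of highest mean also 0 (2.45%) and 3 (16.2%). Median-of-ratios scaling (22.8%) and rows matching a reference transcript (18.8%) called 3 among the 4 groups. With a mouse left out, 2 to 3 were called for HFD against ND, 0 to 6 for CLE against HFD, 0 to 1 for LU against HFD, 0 for CLE against LU, 4 to 7 for CLE against ND, 1 to 3 for LU against ND and 2 to 9 among the 4 groups (9 without CLE mouse 2, with 32.5% of all genes, 2 without ND mouse 4, with 9.14%, and 3 without ND mouse 2 or 3, with 11.3% and 14.8%). For CLE against HFD, the count of 6 was without CLE mouse 2 (18.9%), and 0.242% to 0.804% of all genes were called where it was 0. For LU against ND, 1 was called without LU mouse 2 (8.91%), ND mouse 2 (6.21%) or ND mouse 4 (5.53%). Over the mice left out, 5.67% to 14.4% of all genes were called for HFD against ND and 13.8% to 31.8% for CLE against ND. The shares were 0.0951% to 4.71% for LU against HFD, 0.00865% to 0.0259% for CLE against LU and 5.53% to 21.6% for LU against ND. The cause of these moves was not tested. A pseudocount of 0.1, a minimum mean of 5 FPKM and no variance trend changed no count beyond 1.5 times.

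Differences that turned sign were not called on either side. With GC content correction these were Ahsg for CLE against HFD (-0.0359) and HFD against ND (-0.0338) and Fetub for HFD against ND (-0.11). With median-of-ratios scaling they were Ahsg (-0.0515) and Fetub (-0.13) for HFD against ND, and with quantile normalization Ahsg for CLE against HFD (-0.0159) and LU against HFD (-0.14) and Fetub for HFD against ND (-0.0151). Inhbe for LU against HFD was at -0.13 in both the transcript of highest mean and the rows matching a reference transcript. With a mouse left out, Ahsg ranged from -0.0894 to 0.11 for CLE against HFD and from -0.00177 to 0.0707 for LU against HFD, Fetub from -0.0565 to 0.14 and Inhbc from -0.27 to 0.0374 for HFD against ND, Inhbe from -0.25 to 0.34 for LU against HFD, and Tsku from -0.58 to 0.20 for CLE against HFD. Over the 43 member differences that the text gives, 883 values under the alternatives kept their direction and side of the threshold, 41 lost and 18 gained the call, and 19 turned.

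The mouse numbers 2, 3 and 4 are shared by ND, CLE and LU mice, but the deviations of same-numbered mice correlated at -0.26 to 0.18, so the numbers were not taken to pair mice. With the number as a replicate block, 1 member was called for CLE against ND (2.92% of all genes) and 0 for LU against ND (0.164%), over 7 mice. The same 7 mice without the block, chosen after seeing the data, called 3 (9.51%) and 2 (2.7%). HFD mice share no number with the others. Angptl4 and Enho have no promoter shown. Without counts, depth cannot be used to limit the low values of Enho and Angptl6.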

Other observations

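Of 16 clock genes tested, which keep daily time in the liver, 3 were higher and 1 was lower in HFD than in ND livers (among them Ciart at 1.22, Hlf at 0.70 and Nfil3 at -0.56), and 7 were higher and 2 lower in CLE against ND livers and likewise in LU against ND livers. Of all tested genes, 9.99% were called higher in HFD, 20.9% in CLE and 11.2% in LU against ND livers. None of the 16 was called for CLE or LU against HFD livers. The hour at which livers were taken is not given in the sources used here, and its part in the members' values was not tested.

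Across the 12 livers, after removing the group means, Fetub varied with Rbp4 (r = 0.90), with Angptl6 (0.85) and with Enho (0.80). CLE mouse 4 holds the highest value of all 4 genes and the library most skewed towards genes rich in G and C, and the correlations are given as a description only.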
